A study of Mus musculus with 8 samples.

Results

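Ribosome footprints of Miwi-null testes were compared with those of wild-type (WT) testes, using the 4 footprint samples of the 8 in the series, 2 WT and 2 Miwi-null, and leaving the 4 total RNA samples out of the fit. Testes came from C57BL/6 mice at postnatal day 24 in both genotypes. Null mice lack MIWI (gene symbol Piwil1), a PIWI protein of the Argonaute family, and the kind of null allele is not given in the sources used here. Lysate was treated with nuclease and the ribosome-protected fragments were sequenced, so a footprint count follows how many ribosomes sat on the coding sequence of a gene. The labels number 2 replicates per genotype and name no animals, so a p-value reflects the scatter among these samples only, and some of that may be technical.

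As background, MIWI is made from the pachytene stage of meiosis to the round spermatid stage, where it binds pachytene piRNAs. Males without it are sterile, with germ cells that do not pass beyond round spermatids. Many mRNAs of late spermatids are made early, held without ribosomes and loaded later, when histones give way to transition proteins and protamines and the tail is built. A footprint level in whole testis therefore combines how much of an mRNA there is with how heavily it is loaded. In such bulk samples, fewer cells of a type and less RNA or fewer ribosomes per cell cannot be told apart.

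Gene counts summed to 28069889 and 17746840 in WT and to 11669918 and 28352524 in null, so that 1 count was worth 0.0353 to 0.0857 CPM, the count scaled to a sample total of 1000000. Levels below are CPM after TMM scaling, given for WT replicates 1 and 2 and then null replicates 1 and 2. A gene was called at an adjusted p under 0.05 in edgeR's quasi-likelihood test with Benjamini-Hochberg adjustment over the 15619 genes tested, and changes are log2, null minus WT, ± SE. An exact permutation test of 2 samples against 2 cannot give a p below 0.333, so that test was not used for single genes. Where edgeR called no gene of a list in a direction, the counts at an unadjusted p and in DESeq2 follow in brackets for many lists. Lists without a bracket may also have had such genes. In these directions limma-voom called none either, initiation factors aside. The biological coefficient of variation, the scatter of a gene between replicates, was 0.16 in the footprint samples, 0.175 within WT and 0.139 within null.

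Piwil1 itself had 484 and 392 CPM of footprints in WT and 3.32 and 3.28 CPM in null. Its change was -7.05 ± 0.21 with an adjusted p of 0.000348, and each of the 4 samples matched its label at this gene. Across the testis, 1987 genes were called, 12.7% of those tested. The 1160 genes called lower were 7.43% of the tested genes and the 827 called higher were 5.29%. Counts of called list members below are to be read against these shares. Large decreases outnumbered large increases: among called genes, 391 were at least 4-fold lower and 113 at least 4-fold higher, and at 16-fold or more the counts were 97 and 13. The median change of all tested genes was -0.006, which scaling between samples keeps near 0, so it does not show whether total footprints changed. In 58.1% of tested genes the samples of both genotypes did not overlap. With labels dealt at random, 2 samples against 2 would not overlap with a probability of 0.333. At a mean of 10 CPM or more, the smallest change called was 0.52 on the log2 scale.

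The genes called lower held 9.55% and 8.83% of all footprints in the WT samples and 3.08% and 3.27% in the null samples. Those called higher held 4.13% and 4.06% in WT and 8.44% and 8.77% in null. These shares describe genes chosen by the same contrast and support nothing by themselves. Of the calls, 679 of 1160 lower and 344 of 827 higher were made again in each of the 4 fits that left out 1 sample. The total was 1290 without null replicate 1, and the higher calls were 478 without null replicate 1 and 500 without null replicate 2.

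**Figure D1:**
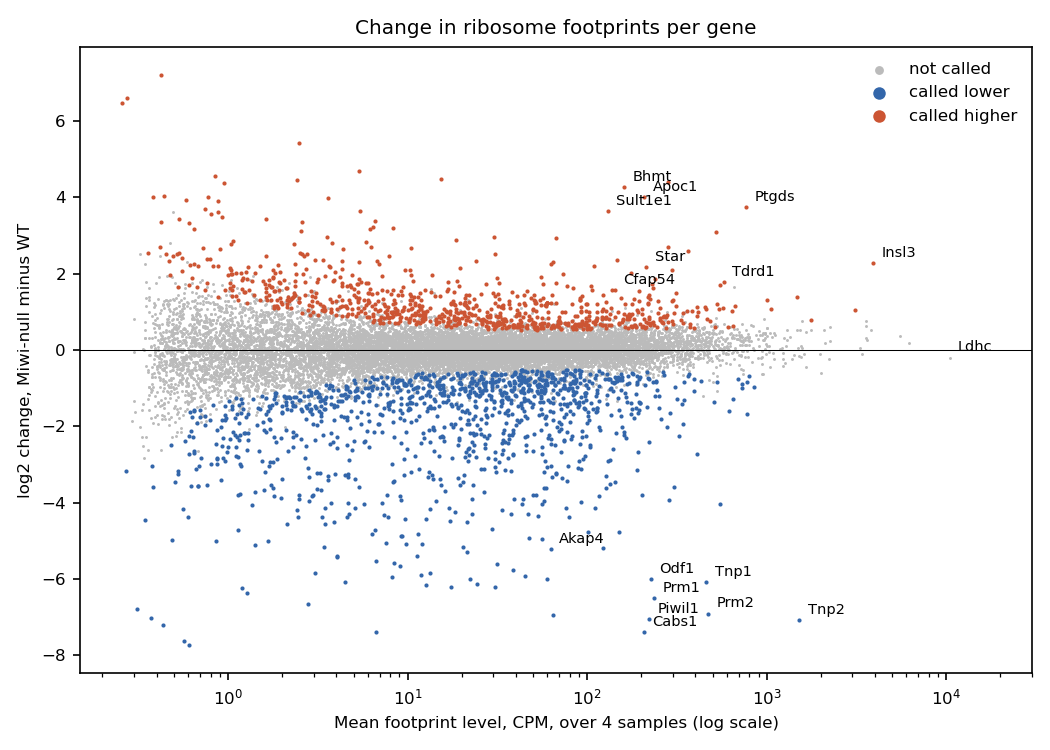
Change in footprints of each tested gene (vertical axis, log2, null minus WT) against its mean level over the 4 samples (horizontal axis, CPM, log scale), with called genes in colour. The largest decreases at a high level are sperm genes such as Tnp2 (-7.08) and Prm2 (-6.91), and Insl3 (2.28) is the labelled increase with the highest level.

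The nuclear proteins that pack sperm DNA lost most of their footprints. Of 17 tested genes for nuclear condensation, 10 were called lower and 1 higher, with a median change of -3.58, and the group's share of all footprints was 0.867% and 0.807% in WT against 0.183% and 0.179% in null. Tnp2, a transition protein that replaces histones, had 3280 and 2744 CPM in WT and 21.2 and 23.2 CPM in null, a change of -7.08 ± 0.22. Its partner Tnp1 went from 815 and 999 to 14.1 and 12.7 CPM (-6.09 ± 0.21). Both null samples lay far below both WT samples for each of these genes.

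Protamines, the small arginine-rich proteins that take over from the transition proteins, fell as far. Prm2 had 770 and 1106 CPM in WT and 8.87 and 6.95 CPM in null (-6.91 ± 0.30). Prm1 had 494 and 436 CPM in WT and 4.66 and 5.45 CPM in null (-6.51 ± 0.20). Prm3, the third gene of that cluster, had 179 and 172 CPM against 11.5 and 10.6 CPM (-3.99). Tnp2 lies next to the protamine genes on mouse chromosome 16 in GRCm38, Tnp2 at 10787935 to 10788655, Prm2 at 10791377 to 10792105 and Prm1 at 10796332 to 10796823.

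The spermatid histone variants named here and Tssk6, a kinase needed for DNA condensation, were also called lower. The 6 uncalled genes of the list included a histone variant. Tssk6 had 63.6 and 64.5 CPM in WT and 3.23 and 3.70 CPM in null (-4.19). The linker histone genes Hils1 (618 and 508 against 42.9 and 51.3 CPM) and H1fnt (390 and 351 against 66.3 and 72.8 CPM) changed by -3.58 and -2.41, and H2al2a by -3.63. All 10 lower calls of this group were made in each fit with 1 sample left out. Chromatin regulators that act at or before histone removal kept to another range: Brdt, which reads acetylated histones, had 277 and 276 CPM in WT and 268 and 254 CPM in null, and Chd5, Rnf8, Psme4 and Herc4 were not called either. Lrwd1 was called higher (0.89), with adjusted p values of 0.0651 without WT replicate 1 and 0.11 without null replicate 1.

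Among proteins of the outer dense fibres and the midpiece, the tail parts behind the sperm head, 14 of 24 tested genes were called lower and 2 higher, with a median of -0.93. Cabs1, a calcium-binding protein of elongating spermatids, showed the largest fall of any named gene, from 450 and 375 CPM to 2.42 and 2.44 CPM (-7.40 ± 0.21). Odf1, a main outer dense fibre protein, had 406 and 487 CPM in WT and 7.89 and 6.21 CPM in null (-6.00 ± 0.22). Smcp, a cysteine-rich protein of the sperm mitochondrial capsule, had 162 and 72.8 CPM in WT and 1.17 and 2.23 CPM in null (-6.00 ± 0.54), so the WT samples spread more than 2-fold for it. Oaz3, a testis antizyme, changed by -5.18 and Spata19 by -3.35.

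The group was not uniform. Ccdc42, a coiled-coil protein of the manchette and the forming tail, was called higher, at 329 and 370 CPM in WT and 771 and 700 CPM in null (1.07), and kept its call with any sample left out. Gpx4 (-0.96) and Odf2 (-0.90) were called lower with changes under 2-fold, at adjusted p values of up to 0.0798 and 0.198 with a sample left out. Of the 14 lower calls, 10 were made in all 4 such fits.

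The fibrous sheath, the scaffold around the principal piece, had 8 of 18 tested genes lower and 1 higher, with a median of -0.64. Tppp2, a tubulin-binding protein of the tail, had 61.9 and 58.7 CPM in WT and 0.807 and 0.803 CPM in null (-6.22 ± 0.18). Akap4, the most abundant protein of the sheath, had 130 and 113 CPM against 2.96 and 3.42 CPM (-5.23), and its relative Akap3 had 765 and 664 against 106 and 108 CPM (-2.74). Cabyr, Fsip1, Fsip2 and Akap14, other sheath components, were not called, and Cabyr had 598 and 623 CPM in WT and 594 and 560 CPM in null. The count of lower calls was 5 without null replicate 1. Rsph1, listed here although it encodes a radial spoke protein of the axoneme, was called higher (1816 and 2216 against 4457 and 3910 CPM, 1.05), with adjusted p values of 0.0640 without WT replicate 1 and 0.0749 without null replicate 1.

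**Figure D2:**
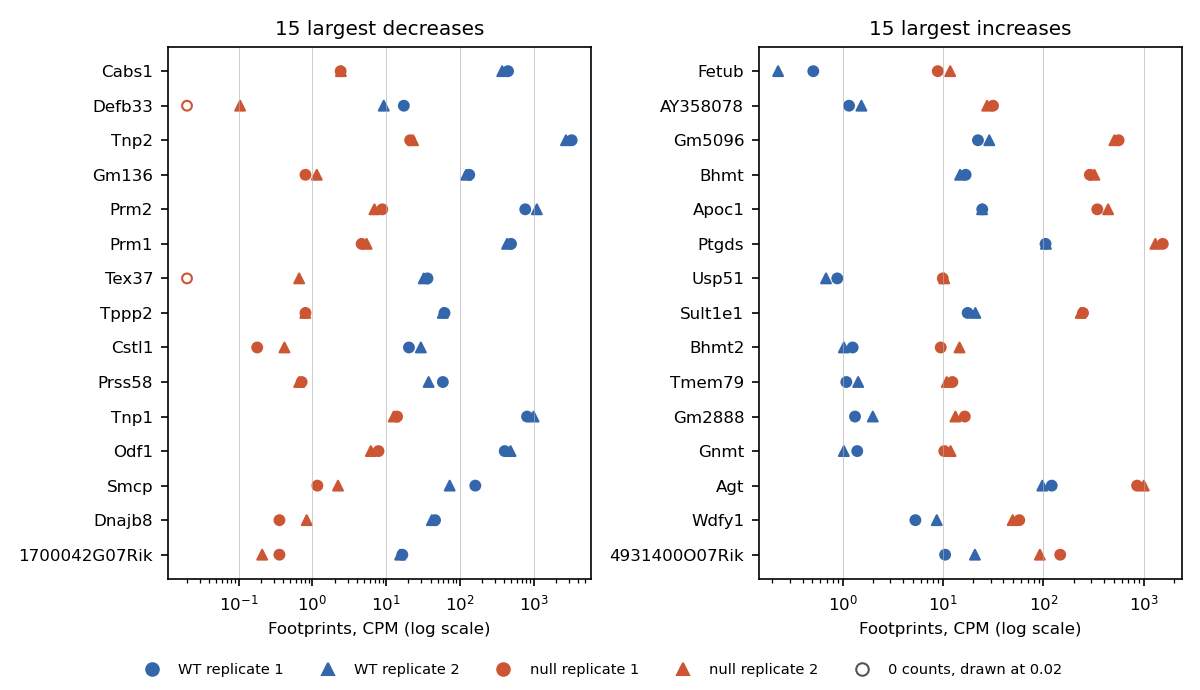
Footprint levels (horizontal axis, CPM, log scale) of the 15 largest decreases (left) and the 15 largest increases (right) in each sample, with circles for replicate 1 and triangles for replicate 2. No null sample overlaps a WT sample in either panel, which the choice of these genes required, and Cabs1 sits at 450 and 375 CPM in WT and at 2.42 and 2.44 CPM in null.

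The axoneme, the microtubule core of the tail with its dynein motors, had more genes called higher than lower. Of 46 tested genes, 22 were called higher and 1 lower, against 5.29% and 7.43% of all tested genes, and the median was 0.61. The axonemal dynein heavy chains Dnah2 (132 and 131 against 298 and 316 CPM, 1.22), Dnah10 (76.2 and 73.8 against 178 and 179 CPM, 1.25) and Dnah7a (93.2 and 79.9 against 213 and 228 CPM, 1.35) were called higher, as was Cfap54, a central-apparatus protein, from 71.9 and 71.6 to 206 and 220 CPM (1.57). Rsph3a, of the radial spokes, had 673 and 959 CPM in WT and 2321 and 1961 CPM in null (1.39). Dnah5 changed most (1.85) from a low level, 1.09 and 1.71 CPM to 4.93 and 4.92 CPM. The 3 dynein genes other than Dnah5 were named after their values were seen.

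These increases were small beside the decreases of the condensation genes, and part of them lay near the threshold. Of the 22 higher calls, 12 were made in all 4 fits with a sample left out, and the count was 13 without null replicate 1 and 14 without null replicate 2. Many dynein genes are long, and after removal of the trend of change with coding length the count was 18. Spag6 was the gene called lower (264 and 225 against 144 and 147 CPM, -0.75), with an adjusted p of up to 0.159 in those fits. Intraflagellar transport genes, which carry material into a growing tail, had 5 of 37 higher and 1 lower with a median of 0.28. The 5 became 2 without WT replicate 1 or null replicate 1 and 3 without null replicate 2. Bbs1 (21.4 and 20.3 against 45.9 and 45.9 CPM, 1.14) and Ttc26 (77.8 and 66.7 against 130 and 136 CPM, 0.88) kept their calls in all 4.

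**Figure D3:**
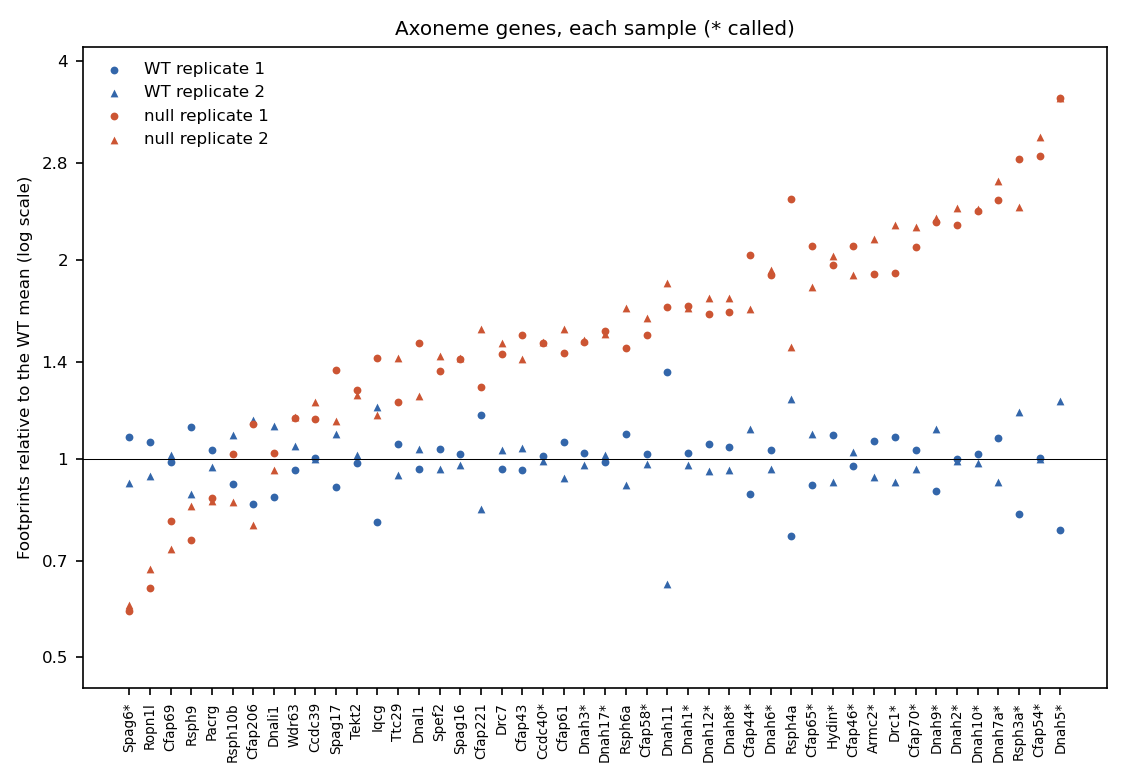
Footprints of each tested axoneme gene in each sample, relative to the mean of the WT samples (vertical axis, log scale), with genes ordered by their change and called genes starred. The genes run up to Dnah5 (1.85 on the log2 scale) at the right end, and the fall of Spag6 (-0.75) is at the left end.

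In the promoters of the condensation and tail genes, a short DNA motif was looked for because the activator CREM drives many spermatid genes through the cAMP response element. RefSeq promoters (GRCm38.p6) were matched by symbol for 12020 tested genes, and the 250 bases before the start were searched on both strands. The full palindrome TGACGTCA was found in 2.8% of all these promoters, in 1.94% of those of genes called lower and in 1.25% of genes called higher. The variant TGACNTCA, which contains the palindrome and was searched after the palindrome had been counted, was found in 8.44% of all promoters, in 17.8% of genes called lower and in 9.87% of genes called higher. Among genes called lower with a log2 change of -4 or below, 23 of 76 promoters held it, or 30.3%. No test was made of these shares.

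Of 32 genes called lower in the condensation, dense fibre and sheath groups, 28 had a promoter in the table and 9 of these held the variant. The 5 windows shown are those of genes whose footprints fell most among the 9, with the motif in capitals and written 5′ to 3′ on the strand of the gene.
Prm1, chr16:10796864-10796903, minus strand: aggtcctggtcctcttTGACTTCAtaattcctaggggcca
Tnp1, chr1:73015970-73016009, minus strand: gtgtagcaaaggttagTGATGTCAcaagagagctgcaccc
Akap4, chrX:7067464-7067503, plus strand: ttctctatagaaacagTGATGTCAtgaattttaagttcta
Prm3, chr16:10790951-10790990, minus strand: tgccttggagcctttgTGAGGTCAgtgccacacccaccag
Akap3, chr6:126853060-126853097, plus strand: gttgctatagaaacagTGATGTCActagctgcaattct
Between the motif and the start of the gene lay 56 bases for Prm1, 86 for Tnp1, 27 for Akap4, 52 for Prm3 and 14 for Akap3. TGATGTCA and TGAGGTCA are forms of the variant read on its other strand. A match describes these letters and not binding. Crem itself was not called, at 248 and 260 CPM in WT and 249 and 219 CPM in null (-0.12 ± 0.14).

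Other regulators of round spermatid genes were mostly level: 5 of 30 tested were called lower and none higher (2 at an unadjusted p under 0.05 in edgeR and 0 called by DESeq2), with a median of -0.11. Fhl5, the CREM coactivator also called ACT, had 169 and 133 CPM in WT and 6.54 and 7.85 CPM in null (-4.38). Spz1, a bHLH-zip factor of the testis, had 65.3 and 48.9 CPM against 1.61 and 2.55 CPM (-4.70). Camk4, a kinase of elongating spermatids, changed by -1.39 and Creb3l4 by -1.28.

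Acrosome genes, for the enzyme-filled cap of the sperm head, were called lower in 16 of 42 and higher in none (1 at an unadjusted p under 0.05 in edgeR and 0 called by DESeq2), with a median of -0.68. Actrt1, an actin-related protein of the perinuclear theca, had 12.9 and 16.4 CPM in WT and 0.448 and 0.419 CPM in null (-5.07). Sppl2c, an intramembrane protease, had 107 and 108 CPM against 7.44 and 6.46 CPM (-3.96), and Fam71f2 changed by -4.87. The protease gene Acr, made from meiosis on, was not called, at 174 and 156 CPM in WT and 206 and 210 CPM in null. Of the 16 calls, 11 were made with any sample left out.

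For sperm-egg fusion and the ADAM proteins, 17 of 39 genes were called lower and 2 higher, with a median of -0.66 and no change beyond -2.59. Pmis2 had 40.8 and 33.4 CPM in WT and 6.18 and 6.18 CPM in null (-2.59). Ace, whose testis form is made in spermatids, had 263 and 241 CPM against 59.6 and 65.3 CPM (-2.01). The transcript counted for Ace had a coding length of 3936 bases, and its counts were not separated by form. Izumo1, the sperm protein that meets the egg receptor, was not called (152 and 94.5 against 62.2 and 78.9 CPM, -0.80 ± 0.26). Tmem95 was called higher, at 7.26 and 6.33 CPM in WT and 13.9 and 16.7 CPM in null (1.17). The 17 lower calls were 11 without null replicate 1, and Tex101, also called higher (1.08), had an adjusted p of 0.0867 without null replicate 2.

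Sperm ion channel and signalling genes had 5 of 36 lower, none higher (1 at an unadjusted p under 0.05 in edgeR and 0 called by DESeq2) and a median of -0.13. Atp1a4, the sperm sodium pump, had 54.8 and 58.1 CPM in WT and 13.0 and 9.46 CPM in null (-2.35). Plcz1, the egg-activating phospholipase, changed by -1.52, from 23.4 and 33.2 to 8.87 and 10.7 CPM. The CatSper subunit genes Catsper1 and Catsper2 were not called, while Tmem249, listed beside the CatSper genes, was called lower (-1.07).

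Energy metabolism genes had 8 of 36 lower, none higher (5 at an unadjusted p under 0.05 in edgeR and 2 called by DESeq2) and a median of -0.01. Ldhc, the testis lactate dehydrogenase, held more footprints than any other gene in both genotypes, at 11236 and 11127 CPM in WT and 9870 and 9537 CPM in null, and was not called (-0.20 ± 0.15). Pgk2, the late phosphoglycerate kinase, had 137 and 143 CPM in WT and 18.9 and 15.2 CPM in null (-3.05). The ketone-body enzyme genes Oxct2a (239 and 234 against 19.4 and 18.7 CPM, -3.63) and Oxct2b (-3.51) are close copies, and how fragments shared between copies were assigned is not given in the sources used here.

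Among testis kinases and their partners, 8 of 28 were lower and 2 higher, including Tssk3 (53.1 and 45.8 against 2.96 and 4.29 CPM, -3.72) and Tssk2 (-3.39), while Fam71b changed by -4.78. All 8 lower calls were made with any sample left out and neither higher call was. Among chaperones, 10 of 45 were lower and 1 higher around a median of 0.00. Dnajb8, a testis J-protein, had 46.1 and 41.7 CPM in WT and 0.358 and 0.838 CPM in null (-6.00), and Hspa1l, the spermatid form of the heat shock protein HSP70, had 156 and 131 CPM against 7.71 and 8.48 CPM (-4.14). Hsp90aa1 and Tcp1, chaperone genes among the 10 with the most footprints in each genotype, were not called.

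**Figure D4:**
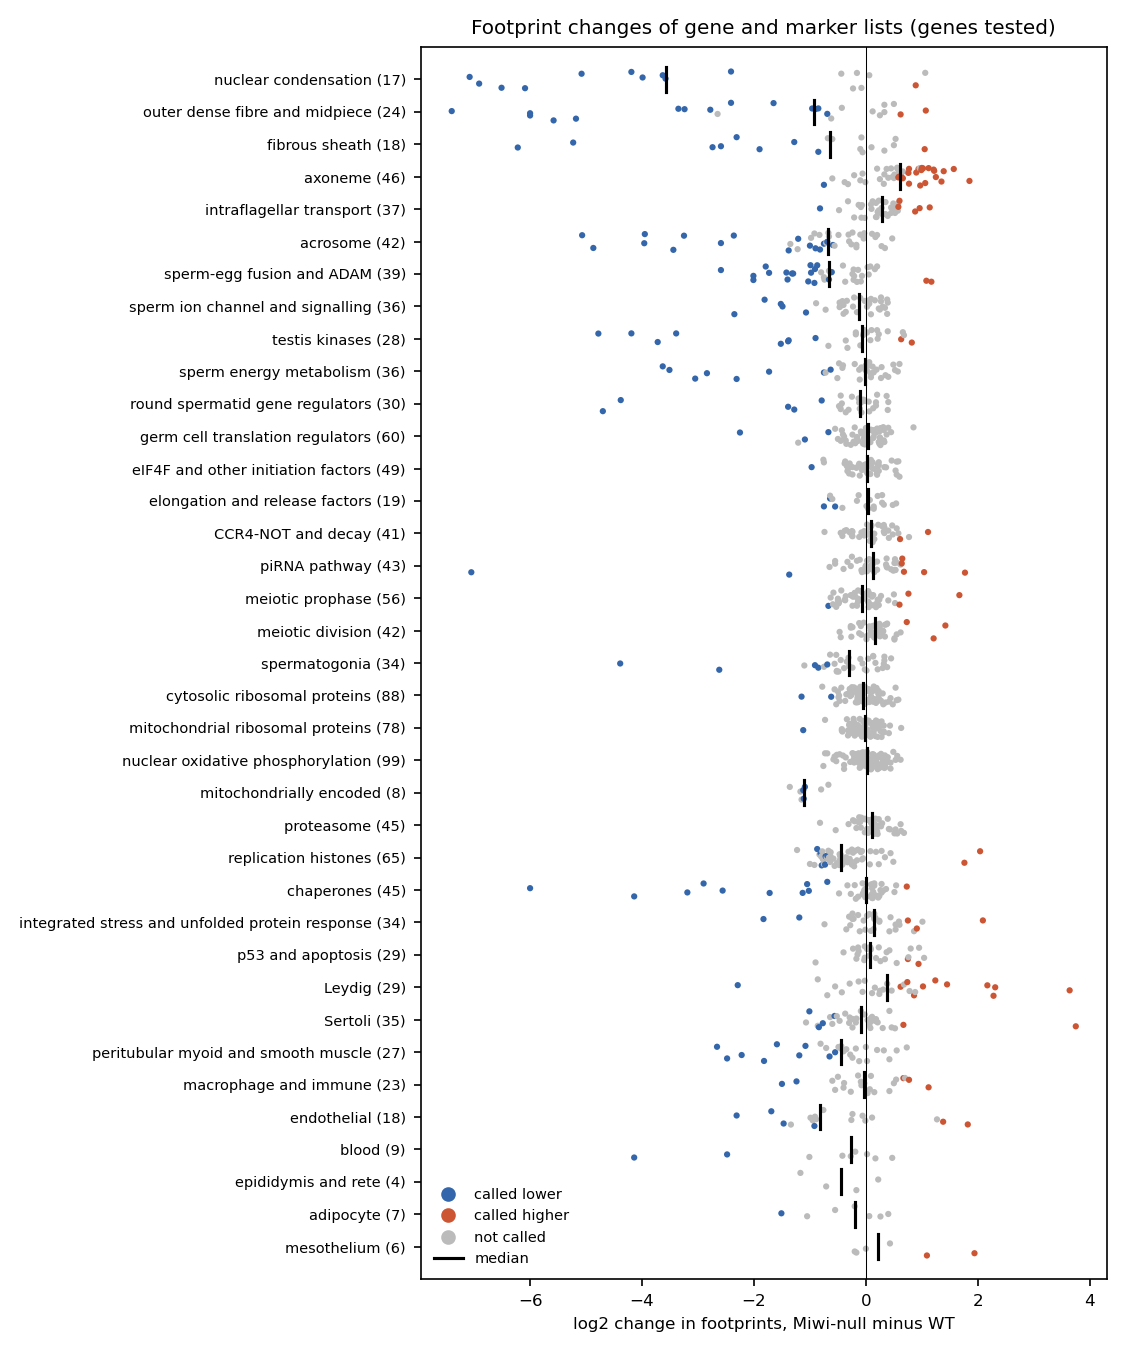
Footprint changes (horizontal axis, log2, null minus WT) of the tested genes of each gene and marker list, with the number tested in brackets, the median as a bar and called genes in colour. Nuclear condensation has the lowest median (-3.58), axoneme the highest (0.61), and the nuclear ribosomal protein and nuclear oxidative phosphorylation lists gather near 0.

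Of 56 meiotic prophase genes, 3 were called higher, near the 5.29% of all tested genes, and 1 lower, with a median of -0.07. Sycp3 and Sycp1, of the synaptonemal complex, were not called, the latter at 469 and 480 CPM in WT and 417 and 409 CPM in null. Brca2, of homologous recombination, had 49.3 and 51.4 CPM in WT and 165 and 156 CPM in null (1.67), and was the one of the 4 whose call was made with any sample left out. Without either null sample the higher calls were 1. Of 42 meiotic division genes, 3 were higher, against 5.29% of all tested genes, and none lower (1 at an unadjusted p under 0.05 in edgeR and 0 called by DESeq2). The higher calls were 5 without WT replicate 2. Knl1, a kinetochore scaffold, had 44.8 and 57.4 CPM against 152 and 122 CPM (1.42), and Ube2c, a ubiquitin carrier of the anaphase-promoting complex, had 12.1 and 9.07 CPM against 22.1 and 26.8 CPM (1.21).

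Spermatogonial genes, against 7.43% of all tested genes called lower, had 5 of 34 lower and none higher (1 at an unadjusted p under 0.05 in edgeR and 0 called by DESeq2), with a median of -0.31, and the 5 became 2 without null replicate 1 and 3 without null replicate 2. Tex13a (5.52 and 7.24 against 0.179 and 0.349 CPM, -4.39) and Lhx1 (-2.62) had low levels. Zbtb16 and Kit, which define undifferentiated and differentiating spermatogonia, were not called.

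In the piRNA pathway, which includes Piwil1, 5 of 43 tested genes were higher and 2 lower, with a median of 0.12. Tdrd1, a Tudor scaffold of the germ granule, had 264 and 259 CPM in WT and 903 and 878 CPM in null (1.77). Henmt1, the methyltransferase of piRNA ends, had 18.2 and 14.3 CPM against 32.2 and 35 CPM (1.04). Piwil2, which encodes the PIWI protein MILI, had 275 and 302 CPM against 487 and 436 CPM (0.68), with an adjusted p of up to 0.245 when 1 sample was left out. Gtsf1l was the gene lower beside Piwil1 (278 and 205 against 77.5 and 109 CPM, -1.37). The granule genes Tdrd6 (0.52 ± 0.17) and Ddx4 (0.53 ± 0.20) and the helicase gene Mov10l1 (-0.25 ± 0.13) were not called. The 5 higher calls were 3 without WT replicate 1 and 2 without either null sample.

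Of the genes of translation itself, few regulators and initiation factors were called, against 7.43% of all tested genes lower and 5.29% higher. Of 60 germ cell translation regulators, 3 were lower and none higher (4 at an unadjusted p under 0.05 in edgeR and 1 called by DESeq2), with a median of 0.04. Samd4, a translational repressor, had 213 and 114 CPM in WT and 26.3 and 41.8 CPM in null (-2.25), and Cpeb3, of the family that binds the cytoplasmic polyadenylation element, had 38.0 and 31.4 CPM against 14.3 and 18.0 CPM (-1.09). Of 49 initiation factor genes, Eif4g1, the scaffold of the cap complex, was the one called in edgeR (DESeq2 called 3 lower, and limma-voom 1 lower and 1 higher), at 379 and 436 CPM in WT and 219 and 197 CPM in null (-0.97), with an adjusted p of 0.0846 without null replicate 2. Eif3f and Elavl1, whose proteins have been described as partners of MIWI in spermatids, were not called, at -0.13 ± 0.19 and 0.24 ± 0.17. Of 19 elongation and release factor genes 3 were lower, and no call was left without WT replicate 2, null replicate 1 or null replicate 2.

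Of 41 decay genes 2 were called higher, near the 5.29% of all tested genes. Xrn1, the main cytoplasmic exonuclease that degrades mRNA from its 5′ end, was 1 of the 2. It had 23.7 and 23.3 CPM in WT and 48.0 and 53.2 CPM in null (1.11). Cytosolic ribosomal proteins had 2 of 88 lower and none higher (3 at an unadjusted p under 0.05 in edgeR and 1 called by DESeq2), with a median of -0.05. Those lower were 6 without WT replicate 2, 1 without either null sample and 0 after removal of the length trend. Mitochondrial ribosomal proteins had 1 of 78 lower, Mrpl54 (65.5 and 92.1 against 37.4 and 35 CPM, -1.12). None of 99 nuclear oxidative phosphorylation genes was called in edgeR, where 6 had an unadjusted p under 0.05, and DESeq2 called 2 higher and 1 lower. None of 45 proteasome genes was called either, with 8 higher and 2 lower at an unadjusted p under 0.05 and 4 higher and 1 lower in DESeq2. By contrast, the 8 tested genes of the mitochondrial genome had a median of -1.11, and 3 were called lower (6 by DESeq2). Of these, mt-Co1, a subunit of complex IV, had 562 and 513 CPM in WT and 260 and 246 CPM in null (-1.09). Another 4 mitochondrial genes, mt-Co2 among them, are listed at 0 in every sample. The 3 calls were 5 without WT replicate 1 and 7 without WT replicate 2.

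The replication histone list had 6 of 65 lower and 2 higher, against 7.43% and 5.29% of all tested genes. It was drawn largely by symbol prefix, so it also holds Hist1h2ba, a testis H2B variant. The median was -0.45, and this group leaned on single samples. The lower calls were 18 without WT replicate 2, 1 without null replicate 1 and 0 after removal of the length trend. The share of footprints held by the whole list was 0.967% and 0.744% in WT and 0.651% and 0.879% in null, so the genotypes overlapped. Hist1h2ba alone had 4139 and 2066 FPKM in WT and 2483 and 5103 FPKM in null. The share without it was not computed, so the overlap is not shown for replication-dependent histones alone. Hist2h2ab (16.3 and 13.1 against 36.2 and 63.3 CPM, 1.76) and Hist2h3c2 (2.04) were called higher in all 4 fits with a sample left out, and histone copies share sequence.

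Stress genes moved singly. Of 34 genes of the integrated stress and unfolded protein responses, 3 were higher and 2 lower. Among all tested genes, 5.29% were called higher and 7.43% lower. Asns, asparagine synthetase, had 190 and 129 CPM in WT and 40.5 and 48.9 CPM in null (-1.83), and Herpud1, of endoplasmic reticulum degradation, had 172 and 188 CPM against 79.0 and 78.4 CPM (-1.19). Atf3 was called higher from a level under 1 CPM (0.443 and 0.285 against 2.06 and 1.36 CPM, 2.09), and the 3 higher calls were 1 without null replicate 2. Ddit3 and Atf4 were not called. The p53 and apoptosis list had 2 of 29 higher, 0 without null replicate 1 and 1 without null replicate 2.

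**Figure D5:**
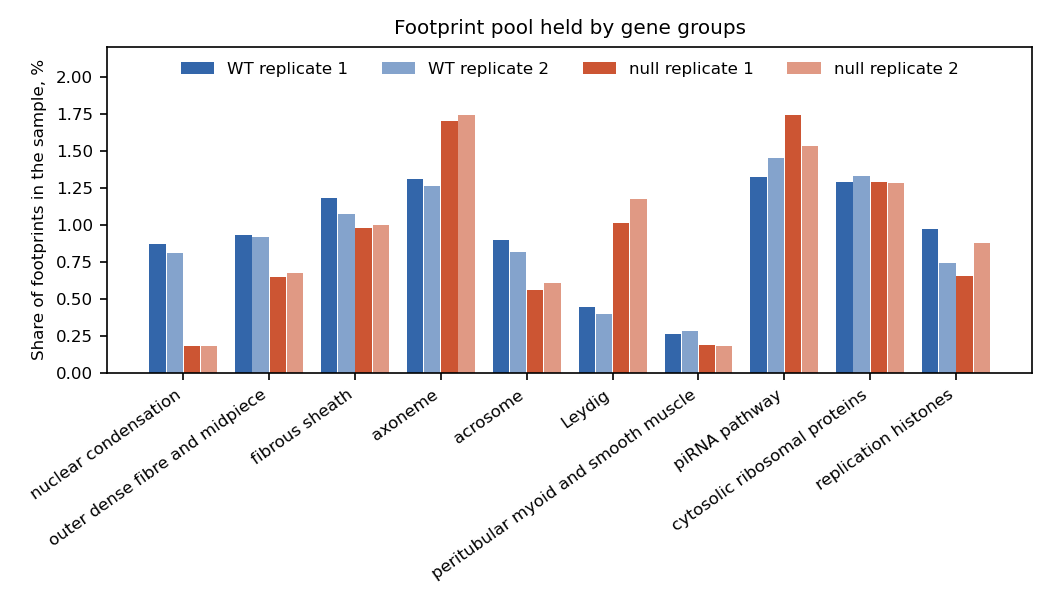
Share of all footprints in each sample (vertical axis, percent) held by 10 gene groups, with a bar per sample. Nuclear condensation falls from 0.867% and 0.807% in WT to 0.183% and 0.179% in null, and the Leydig list rises from 0.440% and 0.398% to 1.01% and 1.17%.

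Somatic cells of the testis also contributed footprints, and several Leydig cell markers rose. Leydig cells make testosterone and lie outside the tubules. Of 29 tested markers, 10 were called higher and 1 lower with a median of 0.38, and the summed level was 4209 and 4025 CPM in WT against 10515 and 11580 CPM in null. Much of the null sum was Insl3, the Leydig cell hormone, at 1271 and 1411 CPM in WT and 6126 and 6870 CPM in null (2.28). Star, which brings cholesterol into mitochondria, had 75.5 and 79.3 CPM against 349 and 349 CPM (2.17), Hsd17b3 changed by 1.45 and Sult1e1, which sulphates oestrogens, went from 17.6 and 21 to 248 and 235 CPM (3.64). Other steroid genes did not follow: Cyp11a1, the first enzyme of the pathway, had 257 and 169 CPM in WT and 153 and 195 CPM in null, Lhcgr, the receptor for luteinising hormone, 29.5 and 20.2 against 13.4 and 20.2 CPM, and Srd5a1 was called lower (-2.29). Of the 10 higher calls, 6 were made with any sample left out.

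Sertoli cells, which nurse the germ cells, had 2 of 35 markers higher and 4 lower, against 5.29% and 7.43% of all tested genes. The median change was -0.09. The summed level was 10232 and 10541 CPM in WT and 10634 and 10166 CPM in null. That sum includes Ptgds, which rose from 105 and 106 CPM in WT to 1544 and 1304 CPM in null. A level sum therefore does not show that the other markers held. The lower calls were 0 without null replicate 1, 2 without null replicate 2, 1 without WT replicate 1 and 8 without WT replicate 2. Sox9, Gata4 and Wt1, which define them, were not called. Peritubular myoid and smooth muscle markers had 9 of 27 lower and none higher (2 at an unadjusted p under 0.05 in edgeR and 1 called by DESeq2). The members that fell included collagen genes, with Col3a1 at 69.0 and 86.2 against 13.1 and 14.5 CPM (-2.48) and Col1a1 at 60.8 and 64.2 against 12.5 and 14.3 CPM (-2.22). The smooth muscle actin gene Actg2 was called lower as well (-1.82), while Acta2 and Myh11 were not called. The summed level of this list was 2529 and 2869 CPM in WT and 1984 and 1795 CPM in null. The germ cell results above were not adjusted for these somatic levels, and their part in them was not tested.

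Less abundant cell types gave low sums. Macrophage and immune markers summed to 560 and 561 CPM in WT and 608 and 614 CPM in null, with 3 of 23 higher and 2 lower (1 higher without null replicate 1 or 2). Endothelial markers summed to 56.1 and 59.1 against 40.1 and 40.2 CPM, with 4 of 18 lower and 2 higher (2 lower without null replicate 1 and 1 without null replicate 2). Blood markers had 2 of 9 lower, Car2 (31.3 and 32.6 against 1.97 and 1.71 CPM, -4.14) and Hemgn (157 and 193 against 35.1 and 27.9 CPM, -2.48), whereas the globin genes Hba-a1 (0.02 ± 0.22) and Hbb-bs (-0.19 ± 0.17) were not called. In the epididymis and rete list 4 of 16 genes reached the filter on low counts, 2 were at 0 in every sample and none was called (2 lower at an unadjusted p under 0.05 and 1 lower in DESeq2). Adipocyte markers had 1 of 7 lower and mesothelial markers 2 of 6 higher.

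The 15 largest increases included secreted proteins and enzymes that no spermatid list held. Ptgds, prostaglandin D2 synthase and a member of the Sertoli list, had 105 and 106 CPM in WT and 1544 and 1304 CPM in null (3.75 ± 0.17). Apoc1, an apolipoprotein, had 24.6 and 24.5 CPM against 344 and 441 CPM (4.0 ± 0.19), and Fetub, fetuin B, had 0.511 and 0.228 against 8.87 and 11.8 CPM (4.69 ± 0.36). Agt, angiotensinogen, had 121 and 97.5 CPM in WT and 857 and 1000 CPM in null (3.09). Outside the 15, Ren1 of the Leydig list, renin, which cuts angiotensinogen, changed by 2.31 from 1.60 and 2.0 to 9.41 and 8.38 CPM.

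Bhmt, betaine-homocysteine methyltransferase, had 16.8 and 14.8 CPM in WT and 290 and 322 CPM in null (4.27 ± 0.17). Its relative Bhmt2 had 1.26 and 1.03 against 9.50 and 14.6 CPM (3.39), and Gnmt, glycine N-methyltransferase, 1.4 and 1.03 against 10.3 and 11.9 CPM (3.17). Gm5096, whose coding length of 1221 bases equals that of Bhmt, had 22.3 and 28.9 against 561 and 509 CPM (4.39). The values of Bhmt and Gm5096 are uncertain, since fragments shared by similar sequences may have been assigned to either gene. Bhmt2 mRNA had only 10 and 2 counts in WT and 4 and 6 in null. Whether its footprint counts include fragments of Bhmt was not tested. The remaining genes of the 15 were AY358078, Usp51, Sult1e1, Tmem79, Gm2888, Wdfy1 and 4931400O07Rik, with changes of 2.94 to 4.47.

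The 15 largest decreases, Piwil1 set aside as the targeted gene, held 8 genes named above from the sperm structures, the chaperone gene Dnajb8 and 6 others. Gm136 had 134 and 122 CPM in WT and 0.807 and 1.15 CPM in null (-6.95). Tex37 had 1068 and 568 counts in WT and 0 and 19 in null, and Defb33, a beta-defensin gene, 510 and 163 counts against 0 and 3, too few in null for a fold. Cstl1, a cystatin-like gene (-6.15), Prss58, a serine protease gene (-6.14), and 1700042G07Rik (-5.95) completed the set. The changes of these 15, Defb33 aside, ran from -7.40 to -5.95.

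Per unit of coding length, the order of the most heavily read mRNAs changed. By the authors' deposited FPKM of footprints, averaged over both replicates of a genotype, Tnp2 ranked 2 in WT (9453 and 7444 FPKM) and 3102 in null (55.9 and 64.8 FPKM). Tnp1 went from rank 7 to 2528, Prm1 from 18 to 4886 and Prm2 from 20 to 5791. Insl3 went from rank 12 (3511 and 3671 FPKM) to rank 1 (15456 and 18366 FPKM), and Ldhc from 1 to 2.

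Changes leaned slightly on coding length. Genes were split by coding length into 5 equal groups, with 75 to 711 bases in the shortest and 2505 bases or more in the longest. The median change went from -0.07 in the shortest through -0.03, -0.01 and 0.03 to 0.07 in the longest, and the share called lower went from 9.14% to 5.61% while the share called higher went from 3.66% to 7.73%. Replicates of a genotype differed only weakly along the same axis. The deviation of replicate 1 from its group mean correlated with log2 coding length over the 15619 genes at r = -0.0751 in WT and 0.0712 in null. With mean log2 CPM it correlated more, at r = -0.148 in WT and 0.165 in null. These values are a description over genes that share a library.

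By chromosome, 681 tested X-linked genes had a median change of -0.19, with 12.2% called lower and 3.38% higher, against 7.10% and 5.42% of 14365 autosomal genes. Of 29 tested Y-linked genes 2 were lower and 1 higher.

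The question of whether footprints changed more than the mRNA was asked for the 10 largest decreases, Piwil1 left out, and the 10 largest increases among the named genes, with an interaction term in a fit of all 8 samples. In that fit 2399 of 16027 genes were called, 15%. Here 10 of the 10 decreases passed, Defb33 with 3 null footprint counts in all among them. Of the 10 increases 4 passed, among them Bhmt2, whose mRNA had 10 and 2 counts in WT and 4 and 6 in null. These 20 genes had been picked for their footprint change. Prm2 mRNA had 10663 and 10645 counts in WT and 254 and 226 counts in null (-5.20), so its footprints changed by a further -1.65 ± 0.26 (adjusted p = 0.00563). For Tnp2 the mRNA change was -4.66 and the further change -2.35 ± 0.15, and for Prm1 they were -3.68 and -2.75 ± 0.19.

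Cabs1 stood out among the 20, with mRNA of 210 and 227 CPM in WT and 63.5 and 66.6 CPM in null (-1.75) and a further footprint change of -5.59 ± 0.18 (adjusted p = 7.68e-06). Among the increases, Ptgds (mRNA 3.56, further change 0.26 ± 0.14) and Sult1e1 (mRNA 4.06, further change -0.35 ± 0.21) did not pass. Tmem79 did, with an mRNA change of 1.02 and a further 2.27 ± 0.24. The count of 14 of 20 was 9 without WT RNA replicate 1, null RNA replicate 1 or null RNA replicate 2.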

How the data were processed

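The authors deposited, per the file headers, whole-number fragment counts per transcript and FPKM values for RNA and footprints, in 1 table per replicate number. Named without roles in the submitters' processing notes are STAR 2.5.0a, Bowtie 1.2.2 and cutadapt 2.5, with GRCm38 as build. No source used here gives the counting program, its use of strand or its handling of multiply mapping fragments. Of 64906 transcripts with a length, 84.7% had a multiple of 3, so lengths are taken as coding lengths, and which fragments were counted is not stated. Each of 21949 genes was given its transcript with the highest mean count, since counts summed over transcripts were up to 2.393 times larger.

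Counts of the 4 footprint samples were fitted in edgeR 4.0.16 (R 4.3.3) with filterByExpr (minimum count 10, total 15), TMM factors and a robust quasi-likelihood test, which leaves 2 residual degrees of freedom. The script was tested on simulated data. Replicates differed by more than counting noise (chi-square per gene of 47 in WT and 23.4 in null). DESeq2 1.42.0, limma 3.58.1 and other settings served as alternatives.

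The samples, the 28 gene lists, the 9 marker lists and the promoter motif were chosen with earlier results of these data known. Named genes are Piwil1, the 15 largest changes each way (Piwil1 apart) among called genes of at least 10 CPM in a genotype with no overlap, up to 4 members per list, the 10 genes with most footprints and defining members. Some further called members were named after their values were seen.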

Additional observations from a re-analysis of the deposited data

Results flagged for a closer look

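For 14 of 20 genes, the 10 largest named decreases other than Piwil1 and the 10 largest named increases, the footprint change differed from the mRNA change in the interaction test of edgeR (Benjamini-Hochberg adjusted over 16027 genes). The 20 genes had been picked for the footprint change that this test also uses. Of all 16027 genes, 2399 (15%) were called. The log2 footprint change minus the mRNA change was -5.59 for Cabs1 (adjusted p = 7.68e-06), -3.31 for Tppp2 (8.48e-05), -2.35 for Tnp2 (0.00011), -2.75 for Prm1 (0.000144) and -3.09 for Gm136 (0.000382). It was -3.91 for Prss58 (0.000558), -3.16 for Cstl1 (0.003), -1.65 for Prm2 (0.00563), -2.53 for Tex37 (0.0144) and -3.97 for Defb33 (0.0451), fitted values that depend on the prior count, since null footprints had 0 and 19 counts for Tex37 and 0 and 3 for Defb33. Among increases it was 2.27 for Tmem79 (0.00117), 0.60 for Bhmt (0.0319), 0.90 for Apoc1 (0.0353) and 3.44 for Bhmt2 (0.0343), whose mRNA had 10 and 2 counts in WT and 4 and 6 in null.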

How the results depend on the processing

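No gene called both in the reported fit and under an alternative had the opposite sign there. Removing the length trend turned the median of meiotic prophase to 0.04 and that of cytosolic ribosomal proteins to 0.16. The call counts moved most. With all 8 samples sharing the estimate of spread, 4070 genes were called (1930 higher and 2140 lower), 1974 of them among the 1987. With the replicate number as a block, 1088 were called (352 higher and 736 lower), and 11 of 20 interaction tests passed. The numbers are not known to pair animals, and deviations from the group means of same-numbered WT and null samples correlated at r = -0.575 over 15619 genes. A crossed pairing, chosen after seeing the data, gave 7841 calls (3914 higher and 3927 lower). Leaving out 1 sample gave 1290 to 2582 calls, 478 to 1084 of them higher and 812 to 1498 lower, with 9 to 14 interaction tests passed. DESeq2 called 2061 genes and limma-voom 1968, and 4523 had an unadjusted p under 0.05 in edgeR. Of the called genes 41.6% were higher, against 48.1% with the length trend removed, which moved the median of all genes to 0.077, 36.5% without TMM and 32.4% with the block. Of 141 gene values named by rule, 37 lost their call with the block, 29 without null replicate 1 and 28 without null replicate 2. With 2 samples a group, small changes limit what was called: the median SE was 0.156 at 10 CPM or more.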
